A study of Mus musculus with 6 samples.

Results

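The Cyp3a genes encode cytochrome P450 enzymes that oxidise drugs, steroids and bile acids in the liver, and the set examined here comprised 9 mouse genes: Cyp3a11, Cyp3a13, Cyp3a16, Cyp3a25, Cyp3a41a, Cyp3a41b, Cyp3a44, Cyp3a57 and Cyp3a59. Their probes were found by matching the transcript accession of each array probe to RefSeq. This gave 11 probes for 8 of the 9 genes; no probe matched Cyp3a41a. After a filter on dim probes, 10 probes of 7 genes were kept, among 20659 features (13312 with a gene symbol) on the array. The members were selected on measured values, the log2 ratios of squalene over Western in these arrays, so those ratios are given for its members as a description, without a test.

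Livers came from male Apoe-deficient mice on the C57BL/6J background, which lack apolipoprotein E in both groups and so carry high plasma cholesterol. For 11 weeks all mice ate a Western diet (20% palm oil, 0.15% cholesterol), either plain (9 mice) or with 1% squalene (10 mice), the hydrocarbon from which cholesterol is made. RNA was combined into 4 pools per diet, each of 2 or 3 animals, so the spread between pools is smaller than that between mice and no single animal can be followed. Each two-colour array set 1 squalene pool against 1 Western pool; 6 arrays on 2 slides gave 4 pool pairs, with squalene in the Cy5 dye in pairs 1 and 4 and in Cy3 in pairs 2 and 3. Pairs 1 and 2 each had a repeat array on the other slide, which was averaged in, so n = 4.

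Transcription of several Cyp3a genes is switched on by the pregnane X receptor (PXR, gene Nr1i2), a nuclear receptor that binds many drugs, steroids and bile acids and acts with the retinoid X receptor. The constitutive androstane receptor (CAR, gene Nr1i3) shares part of its targets, among them the Cyp2b and Cyp2c enzymes. Cyp3a11 is the main Cyp3a enzyme of adult mouse liver, whereas Cyp3a16, Cyp3a41a, Cyp3a41b and Cyp3a44 are known for fetal or female-biased expression. In RefSeq, 8 of the 9 genes form 1 cluster on chromosome 5, in the order Cyp3a57, Cyp3a16, Cyp3a41b, Cyp3a41a, Cyp3a44, Cyp3a11, Cyp3a25 and Cyp3a59, together with 2 Cyp3a pseudogenes; Cyp3a13 lies apart on the same chromosome.

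The sequences just before the genes are shown because they divide the family in a way the choice of genes did not use. They are the 250 bases before the annotated start of 5 genes, 5′ to 3′ on the strand of the gene, from RefSeq with assembly GRCm38.p6. Capitals mark the nuclear receptor half-sites AGGTCA and AGTTCA, on either strand.
Cyp3a11, chr5:145879855-145880104, minus strand: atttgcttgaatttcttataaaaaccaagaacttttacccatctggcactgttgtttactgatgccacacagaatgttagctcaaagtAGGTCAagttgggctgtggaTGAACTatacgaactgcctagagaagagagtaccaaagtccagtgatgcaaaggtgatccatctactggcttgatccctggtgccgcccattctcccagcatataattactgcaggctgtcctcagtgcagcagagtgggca
Cyp3a16, chr5:145469724-145469973, minus strand: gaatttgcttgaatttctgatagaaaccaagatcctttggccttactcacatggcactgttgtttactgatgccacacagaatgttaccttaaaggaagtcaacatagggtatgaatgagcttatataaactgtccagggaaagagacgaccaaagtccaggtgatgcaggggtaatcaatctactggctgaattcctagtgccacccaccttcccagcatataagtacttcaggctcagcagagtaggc
Cyp3a41b, chr5:145584731-145584980, minus strand: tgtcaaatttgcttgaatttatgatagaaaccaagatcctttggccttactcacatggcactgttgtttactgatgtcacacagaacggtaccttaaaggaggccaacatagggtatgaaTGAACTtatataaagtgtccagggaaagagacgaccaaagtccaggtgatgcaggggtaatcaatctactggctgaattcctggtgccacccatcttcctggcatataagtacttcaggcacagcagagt
Cyp3a57, chr5:145345019-145345268, plus strand: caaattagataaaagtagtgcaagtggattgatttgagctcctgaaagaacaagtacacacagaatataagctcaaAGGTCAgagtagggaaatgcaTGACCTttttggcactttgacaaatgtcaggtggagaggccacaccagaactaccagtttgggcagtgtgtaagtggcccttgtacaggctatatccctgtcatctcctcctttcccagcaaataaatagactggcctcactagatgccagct
Cyp3a59, chr5:146079008-146079257, plus strand: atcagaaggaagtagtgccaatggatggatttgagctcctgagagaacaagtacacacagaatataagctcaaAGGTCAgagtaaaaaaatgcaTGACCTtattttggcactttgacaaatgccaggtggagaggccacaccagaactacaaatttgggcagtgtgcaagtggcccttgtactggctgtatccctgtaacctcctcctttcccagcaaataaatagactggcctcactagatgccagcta
By global alignment, the 250 bases of Cyp3a11, Cyp3a16, Cyp3a41a, Cyp3a41b and Cyp3a44 were alike, and so were those of Cyp3a25, Cyp3a57 and Cyp3a59. Cyp3a41a and Cyp3a41b were 99.6% identical, Cyp3a16 and Cyp3a44 95.9%, and Cyp3a25 and Cyp3a59 95.6%. Between the groups, identity over aligned bases reached 81.0%, for Cyp3a16 and Cyp3a25. Cyp3a11 was less clearly placed: it was 81.7% to 83.7% identical to the others of its group and 79.4% to Cyp3a25.

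Half-sites were present in 7 of the 9 promoters, all but those of Cyp3a13 and Cyp3a16, against 24.1% of 27025 promoters of the same length. Cyp3a25, Cyp3a57 and Cyp3a59 each held AGGTCA on both strands, and Cyp3a11 held AGGTCA once and AGTTCA once. Pairs of these half-sites as direct repeats with spacers of 3 or 4 bases, or as everted repeats with spacers of 6 or 8 bases, the arrangements PXR is known to bind, were searched on both strands and matched in 0 of the 9 windows; each was in at most 0.0222% of all promoters. The sequence CAAAGTCCA, a core of sites for the hepatocyte factor HNF4, was in the promoters of Cyp3a11, Cyp3a16, Cyp3a41a and Cyp3a41b, against 0.381% of all, and overlapped no half-site. Windows of the same group are close in sequence, so these counts do not come from 9 separate promoters and no enrichment is read from them. A match describes letters in this window, and enhancers farther away were not examined.

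**Figure D1:**
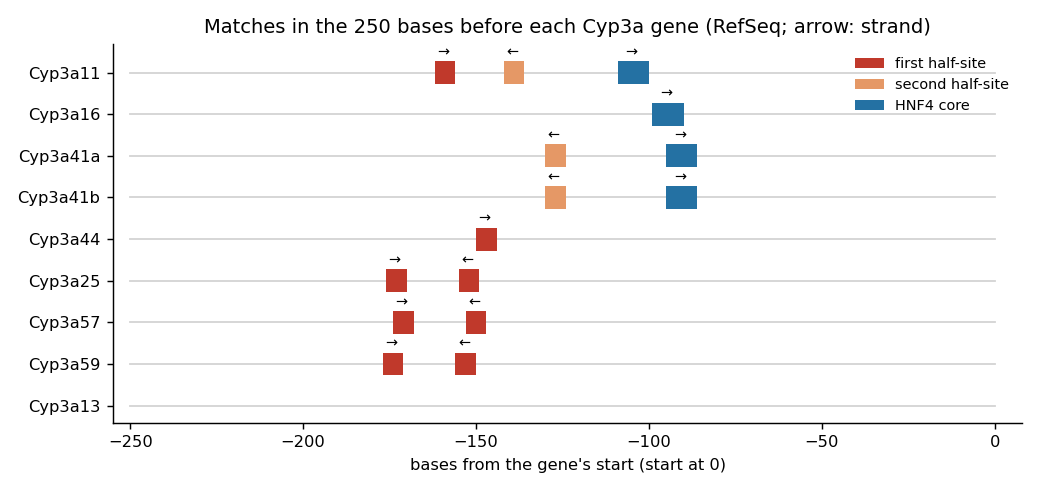
Positions of half-sites and of the HNF4 core in the 250 bases before each of the 9 genes, in bases from the gene's start; arrows give the strand. The first half-site is AGGTCA and the second AGTTCA. Cyp3a25, Cyp3a57 and Cyp3a59 share 1 arrangement, and the HNF4 core is in Cyp3a11, Cyp3a16, Cyp3a41a and Cyp3a41b.

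Signal well above background was seen for 48.67% to 54.16% of spots, depending on array and dye. All 10 kept Cyp3a probes were well above background on 6 of 6 arrays in both channels, and no member's spot was saturated. Repeat arrays of a pair differed by at most 0.0905 on the log2 scale for these probes. Hepatocyte markers, 12 of 12 measured, had summed levels of 19.79 to 20.08 in Western and 19.84 to 20.10 in squalene pools (log2 intensity). Of 6 markers of enterocytes, another cell rich in Cyp3a, 5 (among them Vil1 and the disaccharidases Lct and Sis) failed the filter on dim probes. The other, Fabp2, had a mean log2 intensity of 14.12 in Western and 14.07 in squalene pools, and a ratio of -0.05 ± 0.03 (SD, n = 4). Where its signal came from was not tested. Symbols of probes come from RefSeq, and transcripts of near-identical Cyp3a genes may be read by each other's probes; probe sequences were not used here.

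Cyp3a11, the PXR target that dominates the family in liver, had log2 ratios of squalene over Western of 0.39, 1.09, 0.58 and 1.14 in pairs 1 to 4, a mean of 0.80 ± 0.37 (SD, n = 4) or 1.74-fold. Its log2 intensities were 15.64, 15.32, 15.52 and 15.31 in Western pools 1 to 4 and 16.03, 16.41, 16.11 and 16.45 in squalene pools 5 to 8. Every squalene pool lay above every Western pool. A second, dimmer Cyp3a11 probe gave ratios of 0.28, 1.43, 1.05 and 0.71, a mean of 0.87 ± 0.49 (SD, n = 4), with pair 1 again the lowest.

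Cyp3a41b, a female-biased enzyme whose promoter is almost that of the unmeasured Cyp3a41a, had ratios of 0.42, 0.80, 0.65 and 1.08, a mean of 0.74 ± 0.28 (SD, n = 4) or 1.67-fold. Its log2 intensities were 10.39, 10.19, 10.18 and 10.20 in Western pools and 10.81, 10.99, 10.83 and 11.28 in squalene pools. The pools of the diets did not overlap, and 3 of the 4 Western pools lay within a narrow band below Western pool 1. Across the 8 pools the level of Cyp3a41b correlated with that of Cyp3a11 at r = 0.97, a description that includes the difference between the diets.

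Cyp3a16, known as the fetal Cyp3a enzyme, had ratios of 0.17, 1.28, 1.12 and 0.62, a mean of 0.80 ± 0.51 (SD, n = 4) or 1.74-fold. Its log2 intensities were 13.46, 12.90, 12.998 and 13.42 in Western pools and 13.62, 14.18, 14.12 and 14.03 in squalene pools. The diets did not overlap, but the gap between the highest Western and the lowest squalene pool was 0.17, against 0.39 for Cyp3a11 and 0.42 for Cyp3a41b. The ratios of Cyp3a16 ran in the same order over the pairs as those of the second Cyp3a11 probe.

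Cyp3a59 had ratios of -0.09, 1.38, 1.32 and 0.21, a mean of 0.71 ± 0.76 (SD, n = 4). Its log2 intensities were 13.62, 12.98, 12.81 and 13.59 in Western pools and 13.54, 14.37, 14.14 and 13.80 in squalene pools. For this probe the diets overlapped, and most of the mean came from pairs 2 and 3. A second, dimmer Cyp3a59 probe gave 0.55, 0.74, 1.15 and 0.63, a mean of 0.76 ± 0.27 (SD, n = 4), above 0 in every pair. On that probe the diets did not overlap, with the lowest squalene pool 0.12 above the highest Western pool. The probes differed most in pairs 1 and 2.

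Cyp3a57 had ratios of -0.12, 0.52, 0.80 and -0.11, a mean of 0.27 ± 0.46 (SD, n = 4). Its log2 intensities were 12.54, 12.24, 12.15 and 12.92 in Western pools and 12.42, 12.76, 12.95 and 12.81 in squalene pools, so the diets overlapped. Cyp3a25, an enzyme of adult liver beside Cyp3a11 in the cluster, had ratios of -0.18, 0.43, 0.51 and 0.12, a mean of 0.22 ± 0.32 (SD, n = 4). Its log2 intensities were 13.42, 13.11, 12.96 and 13.54 in Western pools and 13.24, 13.54, 13.46 and 13.65 in squalene pools. Both genes were highest in pairs 2 and 3, and their levels correlated with each other over the 8 pools at r = 0.91.

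Cyp3a13, the member outside the cluster and also found in intestine, had ratios of 0.27, 0.11, 0.13 and 0.02, a mean of 0.13 ± 0.10 (SD, n = 4). Its log2 intensities ran from 11.46 to 11.75 in Western pools and from 11.56 to 11.88 in squalene pools. A second probe gave 0.14, -0.40, 0.45 and -0.11, with 2 pairs on each side of 0. The SD over the 8 pools was 0.15 for Cyp3a13 and 0.46 for Cyp3a11, and the correlation between them was r = 0.31.

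**Figure D2:**
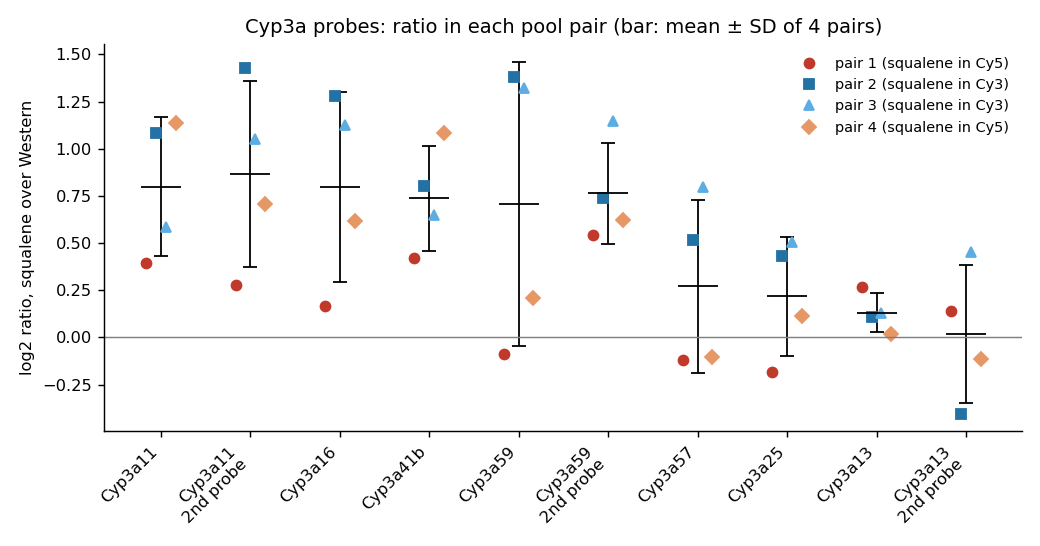
Log2 ratio of squalene over Western in each pool pair for the 10 kept Cyp3a probes; horizontal bars with whiskers are the mean ± SD of 4 pairs, and colours separate the dye orientations. Both Cyp3a11 probes, Cyp3a16, Cyp3a41b, the second Cyp3a59 probe and the first Cyp3a13 probe, closest to 0, are above 0 in all 4 pairs, whereas Cyp3a57 is above 0 in pairs 2 and 3 only.

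**Figure D3:**
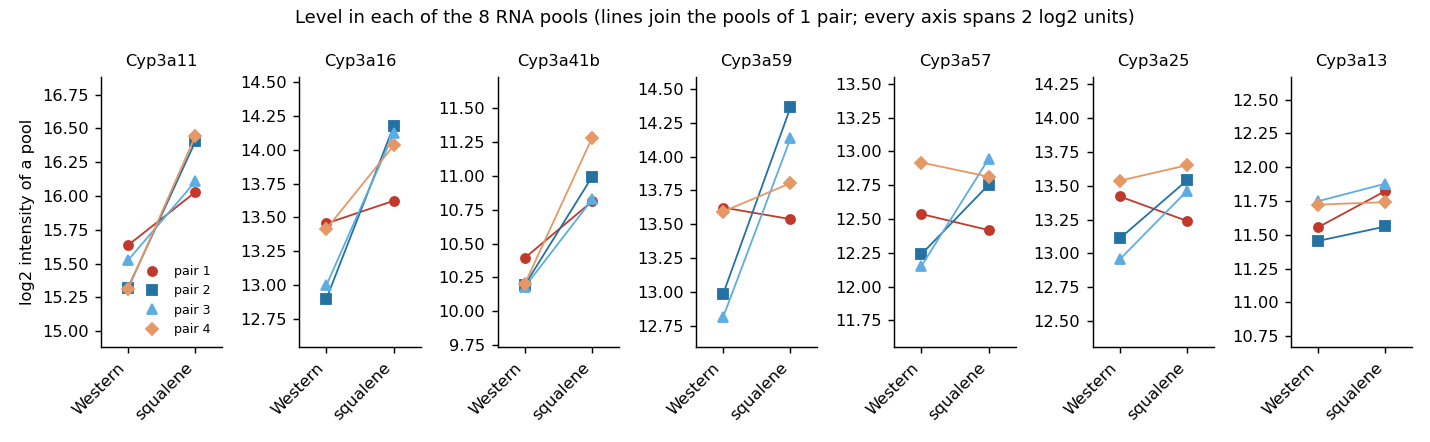
Log2 intensity of the 7 measured genes in each of the 8 RNA pools, with lines joining the pools of a pair; each vertical axis spans 2 log2 units. Each gene is read by its brightest probe. Western and squalene pools do not overlap for Cyp3a11, Cyp3a16 and Cyp3a41b and overlap for the other genes on these probes.

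The median ratio over the 7 measured members was 0.71, against 0.0028 over all features. Ratios were above 0 in all 4 pairs for 4 members (Cyp3a11, Cyp3a13, Cyp3a16 and Cyp3a41b) and for 3.33% of all features. All squalene pools lay above all Western pools for 3 members and for 0.378% of all features. These counts follow from the contrast on which the family was chosen, so nothing is read from them. Over all features, 0% passed an adjusted p of 0.05 for the squalene effect (limma, Benjamini-Hochberg; 0 of 20659), and 511 features had an unadjusted p under 0.05, of which 218, or 1.06% of all, were higher with squalene.

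Among pools of the same diet, the SD over the 4 Western pools had a median of 0.27 over the 7 members and 0.11 over all features. In bulk liver RNA, fewer cells of a type and less RNA per cell cannot be told apart.

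The term for dye orientation in the same model asked whether ratios differed between the pairs with squalene in Cy3 and those with it in Cy5, a comparison the choice of genes did not use. Cyp3a59 was higher in the Cy3 pairs by 1.29 (SE 0.14), Cyp3a16 by 0.81 (SE 0.18), Cyp3a57 by 0.77 (SE 0.14) and Cyp3a25 by 0.50 (SE 0.14). These 4 of 7 members had an unadjusted p under 0.05 in limma, as did 15.3% of all features; 0 members and 0 features passed after Benjamini-Hochberg adjustment, where Cyp3a59 had the smallest value among members, adjusted p = 0.0901. For Cyp3a11, Cyp3a13 and Cyp3a41b the difference was 0.07 (SE 0.30), -0.03 (SE 0.13) and -0.03 (SE 0.24). Second probes were not in that fit. They were higher in the Cy3 pairs by 0.75 for Cyp3a11, 0.36 for Cyp3a59 and 0.01 for Cyp3a13, so the Cyp3a59 difference depended on the probe.

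The calls on orientation depended on normalisation. With median centring in place of loess Cyp3a11 passed an adjusted p of 0.05 (limma, Benjamini-Hochberg), among 2231 of all 20659 features that did. With the authors' deposited table Cyp3a16, Cyp3a25, Cyp3a57 and Cyp3a59 did, among 2481 of 20659. With all 6 arrays and the pool pair as a random block Cyp3a59 did, among 175 of 20658. Each orientation holds its own pools, so a dye effect and a difference between those pools cannot be told apart. Other transcripts moved with orientation too. The 6 measured red cell markers averaged 0.08 in the Cy5 pairs and -0.79 in the Cy3 pairs, and the 11 stellate cell and fibroblast markers 0.12 and -0.36. The markers of a type did not all move alike. The red cell difference came from the globins, whereas Alas2 was at -0.34 and -0.21 in the Cy5 pairs and 0.08 and 0.25 in the Cy3 pairs. The stellate cell and fibroblast difference was largest for Col1a1, Col1a2, Col3a1 and Lum. Acta2 was at 0.82 and -0.11 in the Cy5 pairs and 0.60 and 0.12 in the Cy3 pairs. Hepatocyte markers averaged 0.13 and 0.0057, but single ones moved in both directions. Alb was at 0.57 and 0.24 in the Cy5 pairs and -0.25 and -0.55 in the Cy3 pairs. Cps1 was at -0.13 and -0.25 in the Cy5 pairs and 0.31 and 0.71 in the Cy3 pairs. Summed red cell marker levels ran from 16.73 to 17.95 in Western and from 16.24 to 17.34 in squalene pools (log2 intensity), and those of stellate cell and fibroblast markers from 14.95 to 15.17 and from 14.59 to 15.14. Their part in the Cyp3a values was not tested.

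Cyp3a44, a female-biased enzyme, was read by 1 probe that failed the filter. It was well above background only in Western pool 2, on both of that pair's arrays, and in squalene pool 8. Before any correction, its signal in Western pool 2 was 88 over a background of 59 on 1 array and 102.5 over 72 on the other, and in squalene pool 8 it was 99 over 73. In the other 6 pools it was not well above background, so no ratio is given.

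Female-biased liver genes differed from each other in Western pool 2. Of the 15 listed genes that passed the filter, 11 were highest in that pool among the 4 Western pools, as were 27.5% of all features. Genes named here for this pool were chosen after their values were seen. Cyp2b13, a P450 gene, was at 6.66, 8.07, 6.50 and 6.22 in Western pools 1 to 4 and between 6.77 and 7.22 in squalene pools (log2 intensity), and the sulfotransferase Sult3a1 was well above background in Western pool 2 alone, though it failed the filter. Other listed genes were lower there: Cyp4a14, a fatty acid hydroxylase, was at 14.24, 12.55, 15.99 and 15.54 in Western pools 1 to 4, Cyp4a10 lay 1.59 below the mean of the other 3 Western pools and Prlr 0.45 below it. Xist, the RNA of the inactive X chromosome, was not well above background in any of the 8 pools. Cyp3a41b, also female-biased, was not highest in Western pool 2. Neither was Cyp3a16, known for fetal expression, which had its lowest Western level there.

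**Figure D4:**
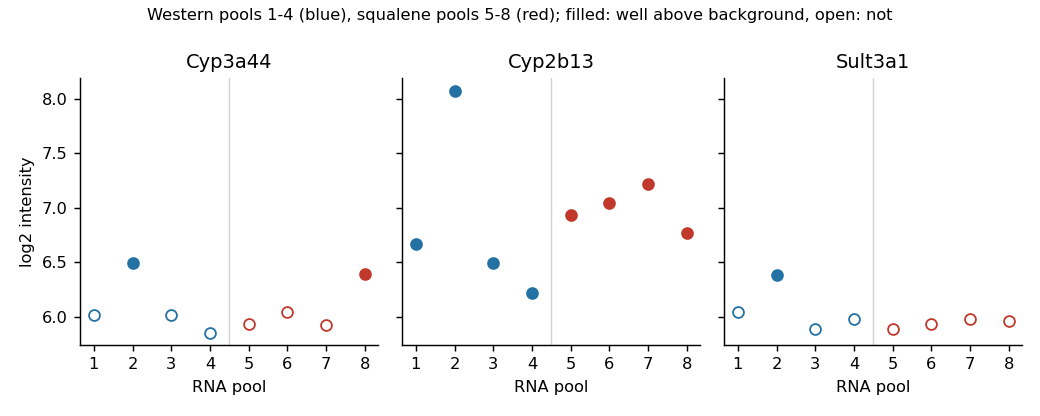
Log2 intensity of Cyp3a44 and of 2 female-biased genes in Western pools 1 to 4 (blue) and squalene pools 5 to 8 (red); filled points are well above background and open points are not. Western pool 2 is the highest pool for each of the 3 genes, and squalene pool 8 is the other pool with Cyp3a44 signal.

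Outside the family, the 8 genes whose levels were most like those of Cyp3a11 over the 8 pools, out of 909 with an SD of at least 0.3, were 7 P450 genes and a chaperone gene. They were Cyp2c55 (r = 0.95), Cyp2c29 (r = 0.90), Cyp2b10 (r = 0.89), Cyp2c38 (r = 0.89), Cyp2b9 (r = 0.88), Cyp2c54 (r = 0.84), Cyp2c50 (r = 0.79) and Hsph1 (r = 0.72). These are correlations over pools of both diets, so a shared difference between the diets enters each of them. Within the family, Cyp3a41b was at r = 0.97 and Cyp3a16 at r = 0.89, above Cyp3a59 at 0.74, Cyp3a25 at 0.56 and Cyp3a57 at 0.45. Cyp3a16 was closer to Cyp3a59 (r = 0.95) than to Cyp3a11. The ratios of Cyp3a16 and Cyp3a59 were higher in the Cy3 pairs, by 0.81 and 1.29, against 0.07 for Cyp3a11. A pattern shared with dye orientation can therefore enter that correlation too.

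Other targets of PXR and CAR were described by a list of 44 genes, of which 37 were measured; like the family it was chosen with results of these data known. Their median ratio was 0.18, with 13 of 37 above 0 in all 4 pairs (3.33% of all features). At an unadjusted p under 0.05 (limma), 14 were higher (1.06% of all features) and 0 lower (293 of all 20659 features). After Benjamini-Hochberg adjustment, 0 passed. Cyp2c38 was at 1.52 ± 0.41, Cyp2c29 at 1.08 ± 0.19, Cyp2b10, the classic CAR target, at 3.35 ± 0.65 and Cyp2c55 at 1.503 ± 0.35 (SD, n = 4). Cyp2c38 depends on the probe: as the mean over its probes it was at 0.68. A ratio of Cyp2b10 of 2.66 in its lowest pair exceeded the highest ratio of any Cyp3a probe, 1.43.

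PXR and its partners, the receptors, hepatocyte factors, coregulators and chaperones through which it acts, had a median ratio of -0.0086 over 23 measured. At an unadjusted p under 0.05 (limma), 0 were higher and 1 lower, against 218 higher and 293 lower of all 20659 features. A list this short would hold few calls at those shares, so the count does not show that it was unchanged. The lower one was Nr0b2, a corepressor of nuclear receptors, at -0.24 ± 0.25; the chaperone gene Hsp90ab1 was at 0.18 ± 0.13 and Cebpa at 0.09 ± 0.49 (SD, n = 4). The receptors themselves, named for their role, were Nr1i2 at -0.0072 ± 0.29, Nr1i3 at -0.06 ± 0.42 and Rxra at -0.07 ± 0.15 (SD, n = 4). Nr1i2 had ratios of -0.32, -0.03, 0.38 and -0.06 in pairs 1 to 4, on both sides of 0.

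P450 enzymes need electrons from the reductase Por or from cytochrome b5, and heme. The 16 measured genes of these functions had a median ratio of 0.0057. At an unadjusted p under 0.05 (limma) there were 0 in either direction, against 511 of all 20659 features. For so few genes this count does not show that they were unchanged. Cyb5a, a cytochrome b5, was at 0.19 ± 0.39, Cyb5b at -0.13 ± 0.17, and the heme-binding Pgrmc1 and Pgrmc2 at 0.13 ± 0.07 and -0.19 ± 0.24 (SD, n = 4). Por was at 0.19 ± 0.40 and Alas1, the first enzyme of heme synthesis, at 0.0093 ± 0.17 (SD, n = 4), both named for their role.

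The lists for sex-biased and zonated expression had medians near that of all features over the 4 pairs, but not in every pair. In pairs 1 to 4 the median was 0.41, -0.16, -0.01 and 0.02 for female-biased genes. It was -0.53, 0.16, 0.29 and 0.16 for male-biased genes and -0.29, -0.20, 0.25 and -0.03 for pericentral genes. All features had medians of 0.0093, -0.0087 and -0.012 in pairs 1 to 3. A link of these shifts to the Cyp3a ratios was not tested. Female-biased genes, 15 measured, had a median of -9.5e-05, with Cyp2b9 at 1.46 ± 0.48, Atp6v0d2 at -0.34 ± 0.54 and Trim24 at 0.19 ± 0.15 (SD, n = 4). With the scanner software's processed signals Cyp2b9 was at 2.635 and Atp6v0d2 at -0.68. Male-biased genes, 18 measured, had a median of 0.02, with Bcl6, a repressor of female-biased genes, at 1.26 ± 1.12, Serpina12 at -0.14 ± 0.18, Ugt2b1 at 0.18 ± 0.43 and C8b at 0.14 ± 0.34 (SD, n = 4). Without pair 3 Bcl6 was at 0.71. Pericentral genes, from the zone where PXR and CAR targets are most expressed, had a median of -0.03 over 20 measured, with Sp5 at -0.27 ± 0.20, Glul at -0.22 ± 0.18, Cyp1a2 at 0.39 ± 0.55 and Lgr5 at -0.21 ± 0.33 (SD, n = 4).

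**Figure D5:**
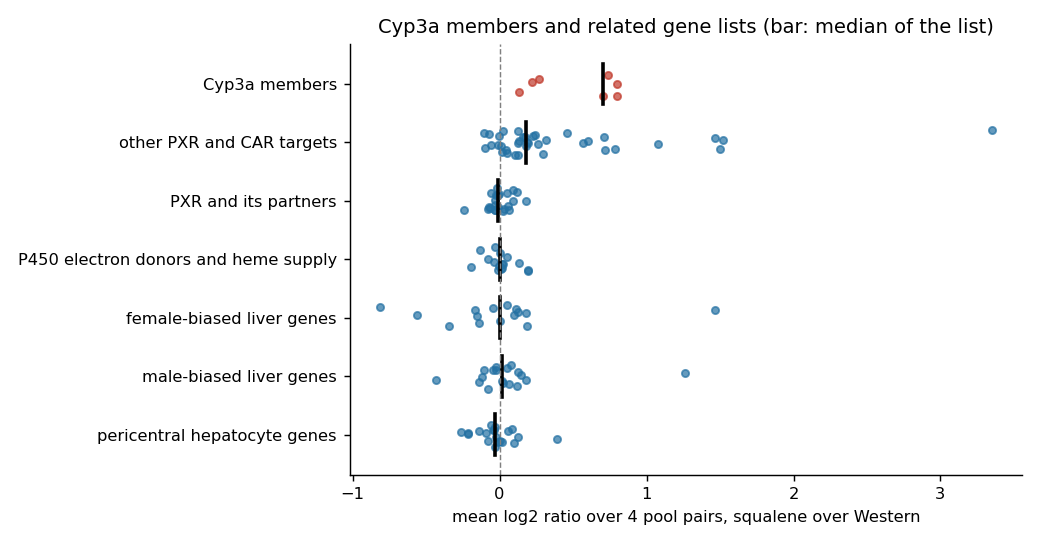
Mean log2 ratio over 4 pool pairs of the 7 measured Cyp3a genes (red) and of the genes in 6 lists (blue); black bars are list medians and the dashed line is the median of all features. The Cyp3a median is 0.71 and that of the other PXR and CAR targets 0.18, and the other 5 medians run from -0.03 to 0.02.

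Genes flanking the cluster had ratios nearer to 0 than that of Cyp3a11. The nearest 4 measured genes before the cluster were Atp5j2, Zkscan14, Zkscan5 and Zfp655, and the nearest 4 after it Rnf6, Cdk8, Wasf3 and Usp12. Their mean ratios lay between -0.09 and 0.10, to which Cyp3a25 at 0.22 and Cyp3a57 at 0.27 were closer than Cyp3a11. Of these 8 genes, 0 were above 0 in all 4 pairs, against 3.33% of all features, so nothing is read from that count. Wasf3 had the highest mean, 0.10 ± 0.08 (SD, n = 4), or 0.41 with the scanner software's processed signals, and Usp12 the lowest, -0.09 ± 0.27 (SD, n = 4).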

How the data were processed

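Liver RNA pools were compared on 6 two-colour Agilent arrays. The deposited scanner files held spot and background intensity per channel, written by Agilent Feature Extraction (version 10.7.3.1, per the file headers); their other columns used here were marks for outliers and signal above background. A further deposited table from the authors gave log10 ratios that, set against the scanner values, were those of squalene to Western median signals before any normalisation, within 0.001 for at least 99.93% of spots, with column medians of -0.27 to 0.27; it served as an alternative.

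The analysis used limma 3.58.1 in R 4.3.3. Background in the median signals was handled by normexp (offset 50), and loess was run within arrays, with controls at weight 0 and outlier spots left out. Means were taken over a probe's spots, then over a pair's repeat arrays, and a gene was read by its brightest probe. Levels are log2 intensities after loess and Aquantile. The limma model held the squalene effect and dye orientation, with Benjamini-Hochberg adjustment over all features. It had 2 residual degrees of freedom. The check on simulated data asked only that median estimates lay near the planted ratios, so it does not vouch for the calls. Accessions were named through RefSeq (GRCm38.p6), which matched 26762 of 55681 probes. Since the files refer to an earlier build, only promoter windows carry coordinates, from RefSeq.

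Probes stayed in if the scanner software marked them well above background for 1 diet or both in 3 or more of the 4 pairs. How repeat arrays count towards a pair had not been set. Requiring all of a pair's arrays kept 26853 probes and 20659 features; requiring 0.5 of them kept 28339 and 21639; requiring more than 0.5 of a probe's spots kept 26848 and 20654. The first was taken after these counts were seen, because it gives the feature count of an earlier processing of these data. Both others were added to the alternatives after seeing the data.

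The members, gene lists and tests were chosen with earlier results of these data known. Named genes were all members, the 8 most like Cyp3a11 over the pools (SD at least 0.3), up to 4 per list by smallest unadjusted p, and 4 measured neighbours on each side of the cluster; Nr1i2, Nr1i3, Rxra, Por and Alas1 were added for their role. For 2 genes that the rule takes, single-gene results are not reported here. Promoters were aligned with Biopython 1.88, and figures drawn with matplotlib 3.10.9.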

Additional observations from a re-analysis of the deposited data

Results flagged for a closer look

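The level of Cyp3a41b in Western pool 1, 10.393 (log2 intensity), stood apart from the other 3 Western pools: its gap to the nearest of them was 0.902 of the range of the 4. Of 33 groups of 4 values examined in this way, chance would mark about 1 in 20. The Cyp3a41b ratio of pair 1, which rests on that pool, was the lowest of the 4 pairs.

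Cyp3a57 had ratios below 0 in both pairs with squalene in Cy5 and above 0 in both pairs with it in Cy3, a difference of 0.76783 between the orientations. The orientation term had an adjusted p of 0.154 (limma, Benjamini-Hochberg). Orientation and the pools that share it cannot be told apart.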

How the results depend on the processing

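Over 18 alternatives, 2 of them added after seeing the data, all 126 values of the 7 measured members stayed above 0. The members were chosen on this contrast. Filter and dye term settings, and the limma setting with trend and robust variances, left each value as it was. For these values, taking every probe as a feature repeated the mean over the probes of a gene. Those settings therefore test nothing here. Cyp3a11 ran from 0.61 to 0.99, Cyp3a16 from 0.69 to 0.91, Cyp3a41b from 0.57 to 0.90, Cyp3a59 from 0.63 to 0.78, Cyp3a57 from 0.20 to 0.34, Cyp3a25 from 0.14 to 0.29 and Cyp3a13 from 0.07 to 0.19. The members' median ran from 0.57 to 0.78, and was 0.49 without a filter, when the dim Cyp3a44 joins them. Above 0 in all 4 pairs were 3 members with the deposited table, 5 with median centring and 4 in the other settings of the same genes and pairs; 6 were so over the 3 pairs left without pair 1, and 6 of the 10 probes taken singly. With 0.5 of a pair's arrays needed in the filter, 535 features had an unadjusted p under 0.05 and 718 were above 0 in all pairs; with more than 0.5 of the spots needed, 510 and 686; both gave 0 after adjustment (limma, Benjamini-Hochberg).

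Other counts moved; the cause was not tested. The squalene contrast chose the members, so no call for a member is read from it. After adjustment (limma, Benjamini-Hochberg), the squalene effect had 8 features for the authors' table, 3 for the random block and 2 for centring by medians. At an unadjusted p under 0.05 it had 202 with median centring, 183 with the deposited table, 937 without a filter, 254 without the dye term and 362 to 1303 when 1 pair was left out. Features above 0 in all pairs were 390 with median centring, 214 with the deposited table, 1409 without a filter and 1703 to 1985 over the 3 pairs left when 1 was removed. The orientation term had 2231, 2481 and 175 adjusted calls for median centring, deposited table and random block; unadjusted, 6989, 8091 and, without a filter, 5117, and 1700 to 3324 when 1 pair was left out.

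Genes near 0 changed sign. Zfp655 was at 0.0043 on slide 2 alone, 0.0061 with the deposited table and 0.0049 with median centring, and Cdk8 at -0.015 with the random block. With 1 pair left out, Zfp655 ran from -0.16 to 0.14, Cdk8 from -0.025 to 0.045, Rnf6 from -0.034 to 0.13, Usp12 from -0.19 to 0.0080, Zkscan14 from -0.12 to 0.066, Zkscan5 from -0.078 to 0.0011 and C8b from -0.0039 to 0.29. Others kept their sign but moved by over 1.5 times with 1 pair left out: Bcl6 ran from 0.71 to 1.82, Ugt2b1 from 0.0085 to 0.35, Serpina12 from -0.24 to -0.042, Cyp1a2 from 0.14 to 0.64, Glul from -0.32 to -0.11, Lgr5 from -0.34 to -0.080, Pgrmc2 from -0.31 to -0.079, Cyb5a from 0.081 to 0.30, Cyb5b from -0.23 to -0.032, Cebpa from 0.049 to 0.14, Hsp90ab1 from 0.11 to 0.26, Trim24 from 0.11 to 0.27 and Atp5j2 from 0.023 to 0.079. With the scanner software's processed signals Cyp2b9 was at 2.635, Atp6v0d2 at -0.68, Cebpa at 0.058 and Wasf3 at 0.41; as the mean over probes Cyp2c38 was at 0.68 and Cyb5b at -0.030. List medians of PXR partners, electron donors, sex-biased and pericentral genes also took both signs. Every fit was paired, since each ratio sets the pools of 1 pair against each other. The number of pools limits precision.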
